A study of Mus musculus with 9 samples.

Results

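Cultured mouse hepatic stellate cells that carry the label of an Nbr1 and Sqstm1 double knock-out (DKO) were compared with wild-type cells (WT) by RNA sequencing. The comparison used 6 of the 9 libraries, 3 of each genotype, and the 10118 of 14020 genes with a normalized count of at least 10 in at least 3 of the 9 libraries. Another group, with a knock-out of Sqstm1 alone (3 libraries), entered the model to estimate the spread and is set beside the results. All cells came from liver and were kept for 4 days in DMEM with serum, glutamine and antibiotics, with no treatment. The labels name no strain, age, deletion strategy or pooling, and they do not say whether the replicates of a group are separate animals or separate cultures. The design text of the series speaks of an Nbr1 knock-out and of biological replicates, and not of the genotypes given for these libraries.

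Hepatic stellate cells lie between hepatocytes and the sinusoidal endothelium and store vitamin A in lipid droplets. In culture and in injured liver they lose their lipid droplets and take on the features of myofibroblasts, with a contractile actin cytoskeleton and secretion of collagens, growth factors and inflammatory mediators. Sqstm1 encodes p62 and Nbr1 encodes a receptor of similar domain structure. Both bind ubiquitin and LC3 family proteins and carry cargo into autophagosomes, and p62 is also a scaffold for signalling to NF-kB and to the KEAP1-NRF2 pathway. The series asks how these receptors act on STING, the adaptor through which cytosolic DNA induces interferon.

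Values are gene read counts divided by a size factor for each library, and are called normalized counts here. They rested on 819677 to 1467793 reads in the WT libraries and 873156 to 1142862 in DKO. Log values of the WT libraries correlated with each other across genes at 0.932 to 0.966, those of DKO at 0.878 to 0.921, and WT with DKO at 0.789 to 0.853 (genes are not independent replicates). Sqstm1 KO replicate 3 stood apart from its group, at a lowest correlation of 0.847. Of 23 stellate cell markers 12 could be tested, among them Pdgfrb, Bgn, Sparc and Col1a1. Lrat, Des and Reln, which define the cell type most closely, were not analysed here. Few markers of other liver cells could be read: 1 of 18 for hepatocytes, 4 of 12 for cholangiocytes, 4 of 18 for macrophages, 5 of 18 for endothelium, 1 of 14 for lymphocytes and 0 of 8 for neutrophils. Exons of 39.7% of the tested genes found in the reference annotation overlap an exon of a gene on the opposite strand. Counted over all 12408 matched genes, tested or not, 72 of the 100 with the highest level and 36.2% of the remainder have one. No source used here states which strand was counted. Reads of a partner may thus be counted in an overlapping gene, and partners are named beside called genes that have one. No level is compared between genes.

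The targeted genes were examined first. Sqstm1 stood at 223, 255 and 243 in the WT libraries and at 25.8, 51.4 and 59.9 in DKO. All DKO values lay below all WT values, at a mean 5.26-fold lower (log2 fold change -2.45, SE 0.38, adjusted p = 0.00116, limma with Benjamini-Hochberg adjustment over all genes tested). In Sqstm1 KO the values were 40.8, 30.8 and 86.8. Mrnip, on the opposite strand of Sqstm1, fell as well, from 13.6, 17.3 and 10.3 to 1.91, 1.14 and 0. It had 50 reads over WT and 3 over DKO, a ratio of 12.2 (95% counting interval 3.93 to 60.9), with an adjusted p of 0.0354, a call lost on leaving out any 1 WT replicate or any 1 DKO replicate (adjusted p then up to 0.186). Nbr1 RNA stood at 106, 92.7 and 106 in WT and at 81.3, 79.9 and 111 in DKO. The groups overlapped and the difference did not pass the test (log2 fold change -0.17, SE 0.24, adjusted p = 0.735). These counts therefore do not check the Nbr1 part of the label, and every direction below rests on the label of the DKO libraries. Y-linked reads were present in WT and DKO, whereas the 4 Y-linked genes tested had 0 in every Sqstm1 KO library. In any comparison with Sqstm1 KO, genotype and the absence of Y-linked reads cannot be told apart. The 4 genes summed to 176 to 177 in WT and 76.5 to 112 in DKO. All 4 log2 fold changes of DKO over WT were negative (median -0.54). In 2 of the 4, every DKO library lay below every WT library, against 15.5% of all genes. Between DKO and WT, genotype and this lower level of Y-linked reads cannot be told apart either. Ddx3y, a Y-linked helicase gene, had 76.3, 67.8 and 76.4 in WT and 47.8, 44.5 and 54.8 in DKO (log2 fold change -0.58, SE 0.34, adjusted p = 0.353), and 0 in every Sqstm1 KO library. Of the 4 Y-linked genes tested, Eif2s3y alone was called lower in DKO (72.2, 64.8 and 60.6 to 5.74, 10.3 and 29.3, adjusted p = 0.0162), and that call was lost on leaving out any 1 WT replicate or DKO replicate 1 (adjusted p then up to 0.0912).

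Against WT, 650 genes changed in DKO, 6.42% of those tested. Of these 416 were higher (4.11%) and 234 lower (2.31%), with median log2 fold changes of 2.03 and -1.77. These shares are the background for the count of every list below. A gene that reached 10 in the DKO libraries and in no other could be tested only as a rise. In the same way, one that did so in WT alone could be tested only as a fall. Hgf, Fbln1, Ctsk, Tgfbi, Slit3, Plxnb1 and Foxf2 are examples of such rises, and the filter thus set part of the list counts. The change was at least 4-fold on the log2 scale of the model in 212 of the higher and 92 of the lower genes. All log2 fold changes are on the scale of log2(value + 1), which understates the change of low genes, and the median over all genes was -0.02. The number of calls depended on the libraries. Leaving out 1 library gave 218 to 305 higher genes for the WT replicates, 246, 370 and 219 for DKO replicates 1, 2 and 3, and 799 for Sqstm1 KO replicate 3. The counts of lower genes were 76 to 101, 145, 267, 108 and 610. Calls that survived the removal of any single library numbered 183 higher and 68 lower. A fit of the 6 compared libraries alone called 711 higher and 518 lower. In bulk RNA, fewer cells of a type and less RNA per cell cannot be told apart, which holds for every gene below. In all 650 called genes the values of the WT and DKO libraries did not overlap, as was the case in 31.2% of all genes. The plot of level against fold change shows the calls at both ends of the range of levels.

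**Figure D1:**
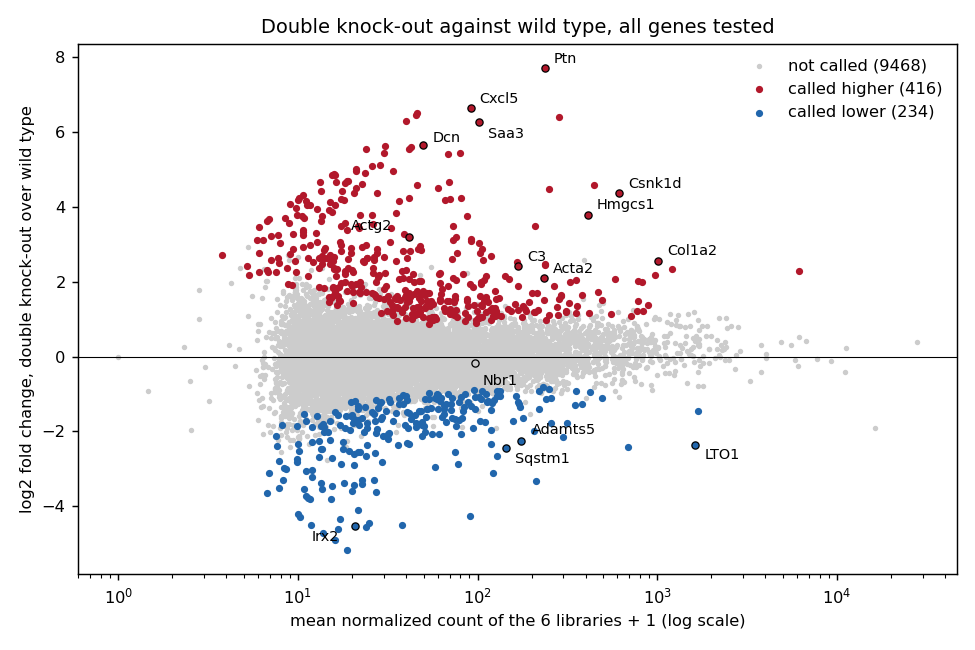
Log2 fold change of DKO over WT (y axis) against the mean normalized count of the 6 libraries plus 1 (x axis, log scale) for the 10118 genes tested. Red points are the 416 genes called higher and blue points the 234 called lower; Ptn, Cxcl5, Saa3 and Dcn lie near the top, Irx2 near the bottom, and Nbr1 close to 0.

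Acute-phase and complement genes were the list with the highest median. These genes encode secreted proteins of early inflammation and the proteases, anaphylatoxin precursors and regulators of the complement cascade, which liver makes in quantity. Of 12 tested members 8 rose and 0 fell, against 4.11% and 2.31% of all genes. Their median log2 fold change was 2.52, and 11 of the 12 had DKO libraries all above the WT libraries, against 15.7% of all genes. In Sqstm1 KO against WT the median of the same genes was 0.19. Between DKO and Sqstm1 KO 9 of them were called higher and 0 lower, with a median of 2.49, against 4.42% higher and 1.51% lower of all genes (5.93% in either direction). The summed level of the 17 members with values ran from 203 to 224 in WT, 204 to 224 in Sqstm1 KO and 932 to 1044 in DKO. With a minimum of 50 instead of 10, 5 members were tested and 3 called higher (median 2.41). Saa3, C1ra, C4b and Serpina3g reached 10 in the DKO libraries alone, so they could be tested only as rises. The counts of rises, the medians and the separation of the groups in this list are thus partly set by the filter.

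Some of these genes carry a sequence in their promoters that the C/EBP family of transcription factors recognises. C/EBP factors are classical activators of acute-phase genes, and Cebpb, which encodes C/EBP beta, rose from 16.3, 12.1 and 14.6 to 59.3, 29.7 and 53.5 (log2 fold change 1.61, SE 0.34, adjusted p = 0.0108; overlap with Tmem189), a call lost on leaving out WT replicate 2 or DKO replicates 1 or 3 (adjusted p then up to 0.0675). The letters TTGCNNAA were searched on both strands from 250 bases before to 50 after each start in RefSeq promoters of build GRCm38.p6. They were found in 7 of the 10 promoters of the 8 list members that matched by symbol, in 8.32% of the 10161 promoters of tested genes and in 10.8% of all promoters. Genes called higher had them in 11.6% of promoters and genes called lower in 12.8%. They were 1 of 9 motifs searched, shown for the largest gap between these 10 promoters and those of tested genes. In the same 10 promoters NF-kB letters were in 70.0% (65.2% of promoters of tested genes), GAS in 30.0% (6.64%) and TEAD in 30.0% (12.2%). TATA letters were in 20.0% (7.28%), ISRE in 10.0% (3.0%), and AP-1, ARE and E-box in 0. A match is a description of the letters and not of binding. Whether C/EBP factors had a part in the rise of these genes was not tested. For Saa3, C3 and Steap4, the 3 called genes of the list with a match within 120 bases of the start, those bases are given 5′ to 3′ on the strand of the gene, with the match in capitals. It lies 99 bases before the start of Saa3 (chr7:46715677-46715796, minus strand), 45 before that of C3 (chr17:57228137-57228256, minus strand) and 87 before that of Steap4 (chr5:7960352-7960471, plus strand).
Saa3: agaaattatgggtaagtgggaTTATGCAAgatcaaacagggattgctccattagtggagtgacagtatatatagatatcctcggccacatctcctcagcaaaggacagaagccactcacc
C3: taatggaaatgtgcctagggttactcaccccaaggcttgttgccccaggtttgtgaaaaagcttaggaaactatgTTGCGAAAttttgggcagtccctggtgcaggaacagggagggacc
Steap4: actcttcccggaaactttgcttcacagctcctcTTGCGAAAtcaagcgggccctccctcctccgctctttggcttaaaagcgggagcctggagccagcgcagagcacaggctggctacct

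Saa3, a serum amyloid A made outside hepatocytes, had 0, 3.01 and 3.03 normalized counts in WT and 263, 166 and 171 in DKO. The groups did not overlap, and the means lay 99.1-fold apart (log2 fold change 6.28, SE 0.60, adjusted p = 2.05e-05). Sqstm1 KO stood with WT at 2.04, 0.812 and 0. Complement C3, the component on which all activation routes converge, rose from 39.5, 58 and 60.0 to 257, 329 and 255 (5.34-fold; log2 fold change 2.41, SE 0.33, adjusted p = 0.000459). The groups were well apart, and Sqstm1 KO lay lowest at 23.5, 34.9 and 13. C1s1 and C1ra encode the proteases of the C1 complex. C1s1 went from 17.7, 19.6 and 18.8 to 121, 140.4 and 138 (log2 fold change 2.77, SE 0.30, adjusted p = 5.43e-05; its exons overlap Gm16567 on the other strand). C1ra went from 0, 0.753 and 1.82 to 20.1, 14.8 and 12.7, a call lost on leaving out WT replicates 1 or 2 or DKO replicates 1 or 3 (adjusted p then up to 0.0704). C4b, which forms the C3 convertase with C2, had 2 reads over the WT libraries and 58 over DKO, a ratio of 39.8 (95% counting interval 10.5 to 336) with an adjusted p of 0.00427.

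Other members of the list moved the same way. Steap4, a metalloreductase induced in inflammation, rose from 5.45, 12.1 and 14.6 to 48.8, 84.5 and 71.3 (log2 fold change 2.63, SE 0.44, adjusted p = 0.00224). Serpina3g, a serine protease inhibitor with near-identical relatives among which reads can be split, rose from 1.36, 0 and 3.03 to 11.5, 22.8 and 11.5 (log2 fold change 2.87), a call lost on leaving out WT replicate 2 (adjusted p then up to 0.0568). In Sqstm1 KO Serpina3g lay between them at 6.13, 5.68 and 9.76. The 4 members that missed the threshold by limma were Cfb (0.94, adjusted p = 0.084), Il1r1 (1.34, 0.0724), Ptx3 (0.64, 0.205) and Cd14 (-0.71, 0.529). Il1r1 was called by edgeR and DESeq2 (adjusted p = 0.0349 and 0.02), and both tools called 9 of the 12 members. Ptx3 and Cd14 differed from the rest in their order of groups. Ptx3 was highest in Sqstm1 KO at 60.2, 51.1 and 80.3, and Cd14, a macrophage marker as well as an acute-phase gene, was lowest there at 3.06, 0.812 and 0, against 21.8, 16.6 and 14.6 in WT and 8.61, 6.85 and 17.8 in DKO. The whole macrophage list summed to 20.3 to 35.4 in WT and 14.3 to 29.3 in DKO.

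**Figure D2:**
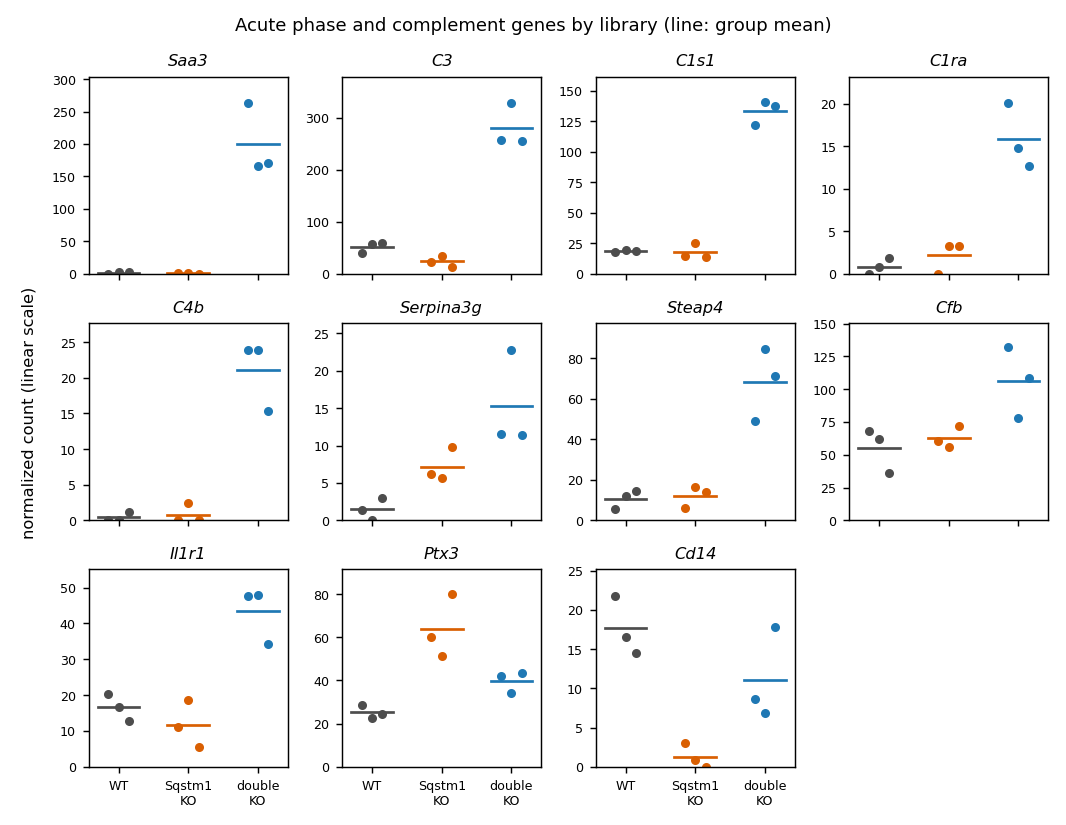
Normalized counts (y axis, linear, separate for each gene) of 11 of the tested acute-phase and complement genes in each library of WT, Sqstm1 KO and DKO (x axis); points are libraries and lines group means. In 7 of the panels DKO was called above WT, and in Saa3, C3, C1s1 and C4b WT and Sqstm1 KO both lie near the bottom.

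Inflammatory signalling genes were also examined outside that list. Of 14 NF-kB subunits and targets 2 rose and 0 fell, against 4.11% and 2.31% of all genes. Nfkbiz, an atypical inhibitor protein that acts as a co-activator, went from 12.3, 12.1 and 14.6 to 90.8, 47.9 and 45.8 (log2 fold change 2.10, SE 0.33, adjusted p = 0.00129). Sod2, the mitochondrial superoxide dismutase, went from 13.6, 21.8 and 25.5 to 59.3, 68.5 and 53.5 (log2 fold change 1.56, SE 0.32, adjusted p = 0.00898). Among 9 cytokines and chemokines 1 passed the limma test. Leaving out Sqstm1 KO replicate 2 gave a count of 2 and leaving out its replicate 3 a count of 3, and edgeR and DESeq2 each called 2. That gene was Cxcl5, a neutrophil-attracting chemokine, at 1.36, 1.51 and 0 in WT and 199, 166 and 176 in DKO. It had 3 reads over the WT libraries and 491 over DKO, a ratio of 224 (95% counting interval 76.3 to 1092), with an adjusted p of 9.08e-07. In Sqstm1 KO Cxcl5 stood between them at 18.4, 30.0 and 52.1, and DKO exceeded it (log2 fold change 2.51, adjusted p = 0.00301). Ccl7, at 9.53, 9.79 and 14.6 in WT and 27.7, 25.1 and 59.9 in DKO, missed the threshold by limma (adjusted p = 0.0503) and was called by edgeR and DESeq2 (adjusted p = 0.0271 and 0.0153). Ccl2 and Cxcl10 overlapped between the groups. The receptor subunit Il13ra1, which takes part in interleukin 13 and interleukin 4 signalling, rose from 0, 0 and 3.64 to 80.3, 104 and 54.8 (log2 fold change 5.55, SE 0.55, adjusted p = 2.75e-05). Bdkrb2, the bradykinin B2 receptor, rose from 1.36, 4.52 and 2.43 to 113, 58.2 and 91.7 (log2 fold change 4.59, SE 0.69, adjusted p = 0.000849), while Sqstm1 KO had 0, 0 and 5.42.

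Growth factors and their receptors held the gene with the largest log2 fold change of all, Ptn. Of 26 tested genes 7 rose and 0 fell, against 4.11% and 2.31% of all genes, with a median of 0.26. Ptn encodes pleiotrophin, a heparin-binding growth factor. It had 0, 2.26 and 2.43 in WT, 33.7, 49.5 and 59.7 in Sqstm1 KO and 394, 521 and 494 in DKO. The 3 groups did not overlap, DKO lay 301-fold above WT in its mean (log2 fold change 7.71, SE 0.43, adjusted p = 2.18e-07), and the difference from Sqstm1 KO was called too (log2 fold change 3.30, adjusted p = 0.000282). Fgf7, the keratinocyte growth factor that fibroblasts supply to epithelium, was ordered alike, with 2.72, 0.753 and 3.03 in WT, 37.8, 54.4 and 40.1 in Sqstm1 KO and 83.2, 179 and 134 in DKO (log2 fold change 5.41, SE 0.40, adjusted p = 2.29e-06; DKO against Sqstm1 KO 1.51, adjusted p = 0.0394). Hgf, the hepatocyte growth factor that stellate cells are known to secrete, had a different order. It stood at 0, 4.52 and 6.67 in WT, at 0, 0.812 and 2.17 in Sqstm1 KO and at 26.8, 25.1 and 33.1 in DKO (log2 fold change 3.06, SE 0.75, adjusted p = 0.025), and the call was lost on leaving out WT replicates 1 or 2 or any 1 DKO replicate (adjusted p then up to 0.112).

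The other 4 growth factor genes that rose were Pdgfra, Kitl, Vegfa and Gas6. Pdgfra, a receptor for platelet-derived growth factor, went from 119.8, 80.6 and 95.2 to 185, 248 and 270.0 (log2 fold change 1.24, SE 0.28, adjusted p = 0.0164; overlap with Gm42802). Kitl, the ligand of KIT, went from 19.1, 22.6 and 17.6 to 49.7, 57.1 and 43.3 (log2 fold change 1.30, adjusted p = 0.0255). Vegfa, the main angiogenic factor, went from 69.5, 52.7 and 47.9 to 119.5, 129 and 86.6 (log2 fold change 0.96, adjusted p = 0.0457). Gas6, the ligand of the TAM receptors, went from 0, 4.52 and 6.67 to 33.5, 51.4 and 29.3 (log2 fold change 3.44, SE 0.61, adjusted p = 0.00323), and Tmem255b on the opposite strand went from 31.3, 16.6 and 14.6 to 654, 342 and 441. Of these, Gas6, Ptn and Fgf7 were called whichever single library was left out. The call of Pdgfra was lost on leaving out WT replicates 2 or 3 or DKO replicate 3 (adjusted p then up to 0.108). That of Kitl was lost on leaving out any 1 WT replicate or any 1 DKO replicate (adjusted p then up to 0.115), and that of Vegfa on leaving out any 1 WT replicate or Sqstm1 KO replicates 1 or 2 or any 1 DKO replicate (adjusted p then up to 0.195). The list's count of 7 became 3 without WT replicate 2 or DKO replicate 3 and 4 without WT replicates 1 or 3 or DKO replicates 1 or 2. Pdgfrb, the second receptor gene, overlapped between the groups (44.9, 61 and 61.9 in WT, 61.2, 78.8 and 58.6 in DKO; adjusted p = 0.656). In the insulin-like growth factor axis 1 of 9 genes rose, against 4.11% of all genes. This was Igfbp4, a binding protein, from 2.72, 3.01 and 1.82 to 44.9, 42.2 and 54.8 (log2 fold change 3.79, SE 0.42, adjusted p = 6.82e-05).

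Contractile genes mark the myofibroblast state. Of 17 tested genes 5 rose and 0 fell, against 4.11% and 2.31% of all genes, with a median of 0.37. Acta2, the smooth muscle actin by which activated stellate cells are identified, had 77.6, 81.4 and 94.6 in WT and 266, 545 and 335 in DKO (4.52-fold; log2 fold change 2.10, SE 0.29, adjusted p = 0.000459). Actg2, the gamma actin of visceral smooth muscle, went from 6.81, 8.29 and 6.06 to 84.1, 82.2 and 54.8 (10.4-fold; log2 fold change 3.20, SE 0.28, adjusted p = 8.2e-06). In both genes DKO lay below Sqstm1 KO, which had 632, 908 and 918 of Acta2 and 162, 169.6 and 142 of Actg2. The difference between DKO and Sqstm1 KO was called in each (log2 fold change -1.14, adjusted p = 0.0316, and -1.11, adjusted p = 0.0298). Cnn1, which encodes calponin, rose from 1.36, 2.26 and 3.03 to 27.7, 32 and 11.5 (log2 fold change 2.86, SE 0.53, adjusted p = 0.00476) and Myl9, a regulatory myosin light chain, from 19.1, 16.6 and 15.2 to 40.2, 51.4 and 62.4 (log2 fold change 1.53, SE 0.28, adjusted p = 0.0037). Neither was called different from Sqstm1 KO (adjusted p = 0.908 and 0.288). Tagln, an actin-binding protein opposite Pcsk7, rose from 131, 118 and 93.4 to 226, 273 and 211 (log2 fold change 1.05, SE 0.27, adjusted p = 0.0309), and the call was lost on leaving out any 1 WT replicate or any 1 DKO replicate (adjusted p then up to 0.157). Pcsk7 itself rose more, from a mean of 2116 to 10142 (log2 fold change 2.28, adjusted p = 0.00876, limma). Whether the rise of Tagln holds reads of Pcsk7 was not tested. Among markers of vascular smooth muscle 3 of 6 rose, namely Cnn1, Actg2 and Notch3. Notch3, a receptor of mural cells, went from 23.2, 17.3 and 15.2 to 59.3, 54.8 and 65 while Sqstm1 KO had 4.08, 10.6 and 6.51 (log2 fold change 1.65, SE 0.37, adjusted p = 0.0148; overlap with Gm17276), a call lost on leaving out WT replicates 2 or 3 or DKO replicates 1 or 3 (adjusted p then up to 0.0825).

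Collagen genes moved in both directions. Of 34 genes for collagens and their processing 7 rose and 3 fell, against 4.11% and 2.31% of all genes. Their median was 0.32. Type I collagen is a trimer of the products of Col1a1 and Col1a2. Col1a2 rose from 294, 281 and 303 to 1966, 1647 and 1584 (5.92-fold; log2 fold change 2.56, SE 0.26, adjusted p = 3.36e-05), and Sqstm1 KO had 1858, 2115 and 2356 (DKO against Sqstm1 KO -0.28, adjusted p = 0.597). Col1a1 had 783, 714 and 756 in WT and 3192, 895 and 1505 in DKO, all above WT but spread widely, and did not pass the limma test (log2 fold change 1.11, SE 0.45, adjusted p = 0.163; DESeq2 called it at an adjusted p of 0.0324 and edgeR did not, at 0.0787). Col3a1, the type III fibril collagen, rose from 251, 187 and 214 to 659, 781 and 726 (log2 fold change 1.74, SE 0.25, adjusted p = 0.000594). Col14a1, a collagen on fibril surfaces, had 3 reads over WT and 122 over DKO, a ratio of 55.7 (95% counting interval 18.6 to 274), with an adjusted p of 0.000102. Col4a6 of basement membranes rose from 4.09, 2.26 and 1.82 to 24.9, 19.4 and 22.9 (log2 fold change 2.69, SE 0.50, adjusted p = 0.00443). Col6a3, of the beaded microfibrils of type VI collagen, rose from 16.3, 16.6 and 16.4 to 52.6, 55.9 and 49.7 (adjusted p = 0.0145). Col12a1, another collagen on fibril surfaces, rose from 38.1, 35.4 and 37.6 to 103, 108 and 119.7 (adjusted p = 0.0164). Bmp1, the procollagen C-proteinase, rose from 25.9, 31.6 and 36.4 to 76.5, 73.1 and 121 (adjusted p = 0.0115). These last 3 calls were lost when single libraries were left out, for Col6a3 on leaving out any 1 WT replicate or DKO replicates 1 or 3 (adjusted p then up to 0.0603), for Col12a1 on leaving out any 1 WT replicate or DKO replicates 1 or 3 (adjusted p then up to 0.0795) and for Bmp1 on leaving out WT replicates 1 or 2 or DKO replicate 3 (adjusted p then up to 0.0767). In Sqstm1 KO Col6a3 was higher than in DKO (212, 224 and 77; log2 fold change of DKO over Sqstm1 KO -1.53, adjusted p = 0.0204).

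The 3 members that fell encode proteins that act outside the cell. Loxl4, a lysyl oxidase that cross-links collagen and elastin, fell from 76.3, 54.2 and 61.2 to 22, 17.1 and 19.1 (log2 fold change -1.66, SE 0.31, adjusted p = 0.00447), and Sqstm1 KO was as low at 20.4, 23.5 and 14.1. Loxl1, its relative in elastic fibres, went from 27.2, 33.1 and 23.6 to 16.3, 10.3 and 3.82 (adjusted p = 0.0467) and Pcolce2, an enhancer of procollagen cleavage, from 25.9, 36.2 and 27.9 to 12.4, 9.13 and 12.7 (adjusted p = 0.0304). The last 2 calls did not survive the removal of single libraries, for Loxl1 on leaving out any 1 WT replicate or Sqstm1 KO replicates 1 or 2 or DKO replicates 2 or 3 (adjusted p then up to 0.198) and for Pcolce2 on leaving out any 1 WT replicate or any 1 DKO replicate (adjusted p then up to 0.174). Loxl1 was not called by edgeR (adjusted p = 0.0524). The list's 7 rises became 4 without WT replicates 1 or 2 or DKO replicate 3 and 11 without Sqstm1 KO replicate 3. Its 3 falls became 1 on leaving out any 1 WT replicate or DKO replicate 3.

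**Figure D3:**
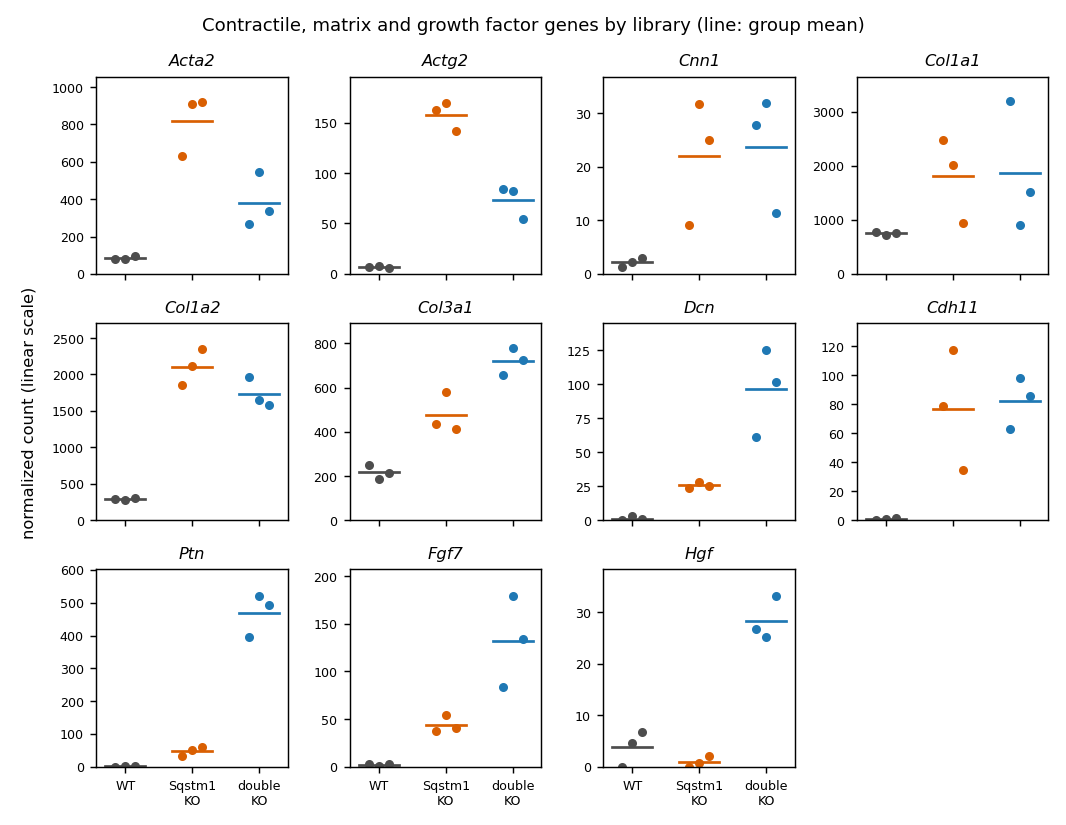
Normalized counts (y axis, linear, separate for each gene) of 11 contractile, collagen, matrix and growth factor genes in each library of WT, Sqstm1 KO and DKO (x axis); points are libraries and lines group means. Acta2 and Actg2 are highest in Sqstm1 KO, Ptn, Fgf7 and Dcn rise from WT over Sqstm1 KO to DKO, and Hgf is highest in DKO.

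Matrix proteins other than collagens rose in 8 and fell in 3 of 34 genes, against 4.11% and 2.31% of all genes. Their median was 0.54. Dcn encodes decorin, a small proteoglycan that binds collagen fibrils. It had 0, 3.01 and 0.606 in WT, 23.5, 28.4 and 24.9 in Sqstm1 KO and 61.2, 126 and 102 in DKO, with 3 separate groups (79.8-fold over WT; log2 fold change 5.65, SE 0.48, adjusted p = 7.58e-06). Vcan, the large proteoglycan versican, went from 23.2, 34.7 and 31.5 to 141, 224 and 183 (log2 fold change 2.57, SE 0.51, adjusted p = 0.00716) and Lama4, a laminin chain of vessel basement membranes, from 6.81, 9.79 and 10.3 to 38.2, 81.1 and 58.6 (log2 fold change 2.55, SE 0.42, adjusted p = 0.00183). Sqstm1 KO had 30.6, 44.6 and 6.51 of Vcan and 5.10, 13 and 10.8 of Lama4. Tnc, tenascin C, rose from 50.4, 55.7 and 57.6 to 118, 212 and 148 (log2 fold change 1.49, SE 0.30, adjusted p = 0.00812; overlap with 8030451A03Rik). Postn, periostin, rose from 5.45, 11.3 and 13.3 to 45.9, 63.9 and 38.2 (log2 fold change 2.24, SE 0.35, adjusted p = 0.0014), with higher values in Sqstm1 KO (92.9, 125 and 79.2). Fbln1, fibulin 1, had no read in Sqstm1 KO, 0, 2.26 and 1.21 in WT and 25.8, 16 and 12.7 in DKO (log2 fold change 3.25, SE 0.72, adjusted p = 0.0148), a call lost on leaving out WT replicates 1 or 3 or DKO replicate 1 (adjusted p then up to 0.0803). Ccn5, a matricellular protein, and Ltbp2, opposite D030025P21Rik, were called as well (adjusted p = 0.0243 and 0.0342). The call of Ccn5 was lost on leaving out any 1 WT replicate or DKO replicates 2 or 3 (adjusted p then up to 0.107) and that of Ltbp2 on leaving out any 1 WT replicate or DKO replicates 1 or 3 (adjusted p then up to 0.15).

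In the opposite direction, Spon1, the adhesive protein spondin 1, fell from 92.6, 82.1 and 61.9 to 18.2, 13.7 and 20.4 (log2 fold change -2.11, SE 0.31, adjusted p = 0.000832). Fbln5, which assembles elastic fibres, fell from 35.4, 36.9 and 43.7 to 2.87, 6.85 and 14 (log2 fold change -2.36, SE 0.45, adjusted p = 0.00537). Ltbp1, a latent TGF-beta binding protein, fell from 415, 465 and 502 to 245, 239.7 and 248 (log2 fold change -0.91, adjusted p = 0.0267), a call lost on leaving out WT replicates 2 or 3 or any 1 DKO replicate (adjusted p then up to 0.138). In these 3 genes the mean of Sqstm1 KO lay between those of WT and DKO, and the difference of DKO from it did not pass the test (adjusted p = 0.068, 0.247 and 0.418). The list's 8 rises became 5 without WT replicates 1 or 3 and 15 without Sqstm1 KO replicate 3.

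Proteases and their inhibitors rose in 7 and fell in 2 of 24 genes, against 4.11% and 2.31% of all genes. Timp1, the inducible inhibitor of metalloproteinases, rose from 6.81, 8.29 and 6.67 to 59.3, 32 and 38.2 (log2 fold change 2.38, SE 0.37, adjusted p = 0.00134). Mmp14, the membrane-bound collagenase, went from 110.3, 130.3 and 133 to 280.2, 307 and 275 (log2 fold change 1.20, adjusted p = 0.0197), a call lost on leaving out any 1 WT replicate or any 1 DKO replicate (adjusted p then up to 0.0798). Mmp2, the gelatinase that Mmp14 activates, overlapped between WT and DKO (32.7, 58.8 and 54 in WT, 34.4, 50.2 and 40.8 in DKO; adjusted p = 0.815), whereas it stood at 9.19, 5.68 and 11.9 in Sqstm1 KO. The ADAMTS family split. Adamts9 rose from 12.3, 9.79 and 6.67 to 72.7, 78.8 and 66.2 (log2 fold change 2.83, SE 0.40, adjusted p = 0.00052; overlap with Gm15737), and Adamts2, which trims procollagen, from 15, 29.4 and 21.8 to 69.8, 91.3 and 65 (log2 fold change 1.76, SE 0.32, adjusted p = 0.00391). Gm15737 rose more than Adamts9, from a mean of 33.0 to 384 (log2 fold change 3.50, adjusted p = 0.000117, limma). Adamts5, an aggrecanase that also cleaves versican, fell from 266, 309 and 291 to 57.4, 62.8 and 57.3 (4.88-fold; log2 fold change -2.27, SE 0.23, adjusted p = 3.36e-05). Sqstm1 KO lay between them at 165, 227 and 208, and DKO was lower than it (log2 fold change -1.73, adjusted p = 0.000362). Adam12, a marker of activated fibroblasts, rose from 1.36, 6.78 and 6.67 to 43, 47.9 and 31.8 (log2 fold change 2.99, SE 0.50, adjusted p = 0.00213). Ctsk, the collagenolytic cathepsin K, had 2 reads over WT and 46 over DKO, a ratio of 31.5 (95% counting interval 8.25 to 268), with an adjusted p of 0.0011. The list's 2 falls became 1 without WT replicates 2 or 3 or DKO replicates 1 or 3 and 4 without Sqstm1 KO replicate 3.

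TGF-beta is the main fibrogenic cytokine for stellate cells, and its family was mixed. Of 30 genes 3 rose and 1 fell, against 4.11% and 2.31% of all genes, with a median of 0.08. Tgfbi, a secreted adhesion protein named for its induction by TGF-beta, had 2 reads over WT and 158 over DKO, a ratio of 108 (95% counting interval 29.5 to 902), with an adjusted p of 5.43e-05. Its values were 3.06, 9.74 and 2.17 in Sqstm1 KO and 61.2, 61.6 and 50.9 in DKO. Bmp1 and Ltbp1, given above, changed as well. The list had 6 rises without Sqstm1 KO replicate 3, and its fall was lost when the libraries named for Ltbp1 were left out.

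Genes of the quiescent state and of retinoid handling are high in stellate cells that store vitamin A. Of 12 tested genes 3 rose and 0 fell, against 4.11% and 2.31% of all genes, with a median of 0.97. Hand2, a transcription factor of the stellate lineage, rose from 28.6, 14.3 and 13.9 to 54.5, 50.2 and 54.8 (log2 fold change 1.52, SE 0.38, adjusted p = 0.0282; its exons overlap Hand2os1), a call lost on leaving out WT replicates 2 or 3 or any 1 DKO replicate (adjusted p then up to 0.141). Hgf, given above, rose as well. The count became 1 without WT replicate 2 or any 1 of the DKO replicates, and 5 without Sqstm1 KO replicate 3. Among 16 lipid droplet genes 0 rose and 1 fell. This was Plin2, the droplet coat protein, from 77.6, 72.3 and 71.6 to 19.1, 32 and 15.3 (log2 fold change -1.76, SE 0.31, adjusted p = 0.00297), with 29.6, 32.5 and 36.9 in Sqstm1 KO. Of the 12 stellate cell markers 7 rose and 0 fell (median 1.38), and all 7 (Pdgfra, Hgf, Dcn, Col1a2, Col3a1, Hand2 and Acta2) belong to lists described above. Their count was 4 without WT replicate 2 or DKO replicate 3.

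Markers of other cells that make matrix or contractile proteins were read as well. Of 15 vascular smooth muscle markers 8 had values, with a summed level of 62.5 to 76.1 in WT, 229 to 291 in Sqstm1 KO and 199 to 235 in DKO. Of 19 portal fibroblast and mesothelial markers 7 had values (Thy1, Fbln2, Gas6, Cd34, Wt1, Igfbp6 and Il33), which summed to 206 to 252 in WT, 267 to 463 in Sqstm1 KO and 364 to 406 in DKO, and 2 of the 4 tested rose, Gas6 and Cd34, while Igfbp6 had 30.0, 27.9 and 19.4 in WT and 15.3, 7.99 and 11.5 in DKO, with all DKO libraries below WT and no call (adjusted p = 0.303). The 5 endothelial markers with values (Stab1, Stab2, Eng, Cd34 and Plvap) summed to 103 to 139 in WT, 99.0 to 361 in Sqstm1 KO and 215 to 296 in DKO. Eng, opposite Fpgs, and Cd34, opposite Gm16897, rose, and neither call survived without WT replicates 2 or 3 or DKO replicates 1 or 3. Gm16897 rose more than Cd34, from a mean of 3.18 to 154 (log2 fold change 5.44, adjusted p = 2.79e-06, limma). The part of other cell types in the changes of matrix, contractile and growth factor genes was not tested.

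**Figure D4:**
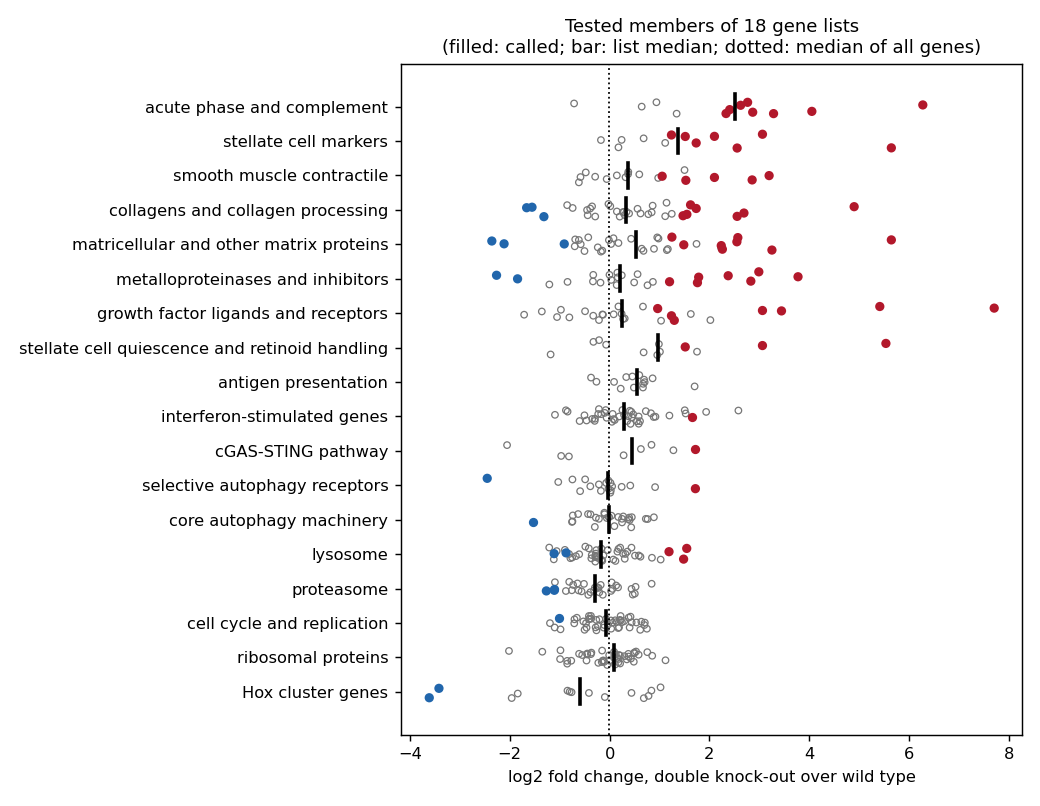
Log2 fold change of DKO over WT (x axis) for the tested members of 18 gene lists (rows). Filled points were called, red higher and blue lower, open points were not, black bars are list medians and the dotted line is the median of all genes at -0.02; the acute-phase list sits farthest to the right, at 2.52, and the ribosomal list at 0.09 has no filled point.

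Interferon-stimulated genes, the output of the pathway named in the series, were compared between DKO and WT. Of 43 tested genes 1 rose and 0 fell by limma, against 4.11% and 2.31% of all genes (10 at an unadjusted p under 0.05, against 21.4% of all genes), with a median log2 fold change of 0.29. edgeR and DESeq2 on the recovered reads each called 4 of the 43 higher. In Sqstm1 KO against WT the median was -1.60, with 27 genes lower and 0 higher, against 3.18% and 2.43% of all genes (5.61% in either direction). The test of DKO against Sqstm1 KO called 28 higher and 0 lower, with a median of 2.01. Both comparisons use the Sqstm1 KO libraries and are not independent. In both, genotype cannot be told apart from the absence of Y-linked reads in Sqstm1 KO. Summed over the list, levels were 1795 to 2078 in WT, 612 to 796 in Sqstm1 KO and 2295 to 3494 in DKO. Such a sum is weighted to genes of high level, and Ifit1, given below, spread widely within DKO. The called gene was Dhx58, which encodes the RNA sensor LGP2, from 27.2, 18.8 and 22.4 to 97.5, 46.8 and 85.3 (log2 fold change 1.65, SE 0.43, adjusted p = 0.0355). Its exons overlap Dhx58os, and the call was lost on leaving out any 1 WT replicate or DKO replicates 1 or 3 (adjusted p then up to 0.155). Without Sqstm1 KO replicate 3 the count was 6, and in the 6 libraries alone it was 7 higher and 1 lower.

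Single antiviral genes varied within DKO. Ifit1, an RNA-binding antiviral effector, had 89.9, 52.7 and 66.7 in WT, 25.5, 7.30 and 134 in Sqstm1 KO and 1601, 107 and 408 in DKO. The DKO libraries were all above WT but 1 of them, replicate 1, lay far above the others, and the difference did not pass the limma test (log2 fold change 2.58, SE 0.90, adjusted p = 0.111). It was called by edgeR and DESeq2 (adjusted p = 0.0203 and 0.0491). Other antiviral genes were ordered differently. Ifit2 stood at 143, 145 and 143 in WT and 119.5, 93.6 and 75.1 in DKO, and Oasl2 at 68.1, 52 and 52.2 in WT and 49.7, 59.4 and 50.9 in DKO (adjusted p = 0.167 and 0.912). A consensus of the interferon-stimulated response element, searched on both strands of the same promoter windows, was in 17 of 37 promoters of the tested list members (45.9%) and in 3.0% of promoters of tested genes. It was in 2.84% of the promoters of genes called higher and 3.42% of those of genes called lower.

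Upstream of interferon, 1 of 8 tested genes of the cGAS-STING pathway was called by limma, against 6.42% of all genes. The list had 3 rises and 2 falls without Sqstm1 KO replicate 3, 2 and 2 in the 6 libraries alone, and 1 and 2 with the replicate block. No gene of it was called without WT replicates 1 or 3 or DKO replicates 1 or 3. Irf3, the transcription factor that STING activates, rose from 5.45, 12.1 and 3.64 to 25.8, 19.4 and 24.2 (log2 fold change 1.71, SE 0.44, adjusted p = 0.0312). Its exons overlap Bcl2l12, and the call was lost on leaving out WT replicates 1 or 3 or any 1 DKO replicate (adjusted p then up to 0.153). Sting1 itself had 6.81, 11.3 and 11.5 in WT, 11.2, 17.9 and 13 in Sqstm1 KO and 39.2, 21.7 and 17.8 in DKO, with DKO above WT in every library and no call (log2 fold change 1.28, SE 0.41, adjusted p = 0.0798). Cgas, the DNA sensor, overlapped between the groups (19.1, 11.3 and 16.4 in WT, 19.1, 29.7 and 11.5 in DKO; adjusted p = 0.799; overlap with Gm8093). Tbk1, the kinase between STING and Irf3, lay lower in DKO at 26.8, 35.4 and 29.3 against 49, 70.8 and 63.1, short of the threshold by limma (log2 fold change -0.97, adjusted p = 0.0607) and called lower by edgeR and DESeq2 (adjusted p = 0.0466 and 0.0432). In antigen presentation 0 of 14 genes were called in either direction by limma (2 at an unadjusted p under 0.05; 1 higher by edgeR and by DESeq2), with a median of 0.54. The class I heavy chain gene H2-K1 had 43.6, 42.9 and 40.0 in WT and 60.2, 68.5 and 50.9 in DKO (adjusted p = 0.418).

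The targeted receptors act in autophagy. Of 19 selective autophagy receptors Sqstm1 fell and 1 rose, against 2.31% lower and 4.11% higher of all genes. That gene was Stbd1, a receptor for glycogen, from 9.53, 4.52 and 12.1 to 38.2, 29.7 and 21.7 (log2 fold change 1.72, SE 0.39, adjusted p = 0.0164), a call lost on leaving out WT replicate 2 or DKO replicate 1 (adjusted p then up to 0.0959). Tax1bp1 and Optn, which take similar cargo to p62, were not called. Tax1bp1 (overlap with Gm43966) had 58.6, 67 and 80.7 in WT and 86.1, 77.6 and 79 in DKO (adjusted p = 0.674), and Optn (overlap with 4930551O13Rik) 10.9, 13.6 and 12.1 in WT and 10.5, 6.85 and 6.37 in DKO (adjusted p = 0.47). Of 29 core autophagy genes 1 fell and 0 rose. Rb1cc1, the FIP200 subunit of the ULK1 complex and a binding partner of p62, went from 68.1, 114 and 105 to 27.7, 33.1 and 34.4 (log2 fold change -1.54, SE 0.27, adjusted p = 0.00345; overlap with 4732440D04Rik), below Sqstm1 KO at 62.3, 79.5 and 69.4 (log2 fold change -1.12, adjusted p = 0.0256). Of 45 lysosomal genes 3 rose and 2 fell. Scarb2, a lysosomal membrane protein, rose from 44.9, 59.5 and 63.1 to 157, 196 and 141 (log2 fold change 1.55, SE 0.28, adjusted p = 0.00391) and kept its call without any single library. The calls of Ctsa (opposite Pltp), Cln3 (opposite Apobr) and Cd63 (log2 fold changes 1.19, 1.48 and -0.87) were each lost when 1 of several libraries was left out, and the rises of the list became 1 without WT replicates 2 or 3 or DKO replicates 1 or 3. Falls became 0 without WT replicates 2 or 3 or DKO replicates 1 or 3, 1 without WT replicate 1, Sqstm1 KO replicate 1 or DKO replicate 2, and 4 without Sqstm1 KO replicate 3. Of 31 proteasome subunits 3 fell and 0 rose, with a median of -0.29. These were Psma1, Psma6 and Psmd11 (log2 fold changes -1.11, -1.27 and -1.10). Their count became 0 on leaving out any 1 WT replicate or DKO replicate 3, 1 without DKO replicate 1 and 6 without Sqstm1 KO replicate 3.

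The KEAP1-NRF2 pathway, to which p62 couples autophagy, showed 1 fall among 21 targets and 0 rises, against 2.31% and 4.11% of all genes. Srxn1, sulfiredoxin, went from 36.8, 28.6 and 33.4 to 9.56, 12.6 and 15.3 (log2 fold change -1.35, SE 0.33, adjusted p = 0.0247), a call lost on leaving out any 1 WT replicate or DKO replicate 1 (adjusted p then up to 0.107). The list had 3 falls and 1 rise without Sqstm1 KO replicate 3. Other cell functions were read from further lists, against a background of 6.42% of all genes called in either direction. Respiratory chain (41 genes), p53 targets (17) and ribosomal proteins (47) had 0 calls in either direction by limma, with 5, 1 and 7 genes at an unadjusted p under 0.05. On the recovered reads edgeR called 0 in each, and DESeq2 called 1 respiratory chain gene higher and 1 lower. Without Sqstm1 KO replicate 3 limma called 1 higher and 1 lower in the respiratory chain, 1 lower among p53 targets and 2 higher and 2 lower among ribosomal proteins, of which 4 were called lower without DKO replicate 2. Ccnd1, cyclin D1, was the single call among 47 cell cycle genes and fell from 87.2, 68.5 and 81.3 to 31.6, 38.8 and 45.8 (log2 fold change -1.02, SE 0.26, adjusted p = 0.0326), a call lost on leaving out any 1 WT replicate or any 1 DKO replicate (adjusted p then up to 0.13). Its partner on the other strand, LTO1, is described further on. In cholesterol synthesis 1 of 22 genes rose. Hmgcs1, the cytosolic HMG-CoA synthase, had 65.4, 42.9 and 56.4 in WT, 64.3, 77.9 and 43.4 in Sqstm1 KO and 789.8, 750.1 and 750.2 in DKO (log2 fold change 3.79, SE 0.27, adjusted p = 1.63e-06). It overlaps the predicted gene Gm48342, and the other 21 genes of the pathway were not called. Among 29 genes of glycolysis and hypoxia 4 rose and 1 fell. Hif1a, the oxygen-regulated transcription factor, rose from 84.4, 91.1 and 97.6 to 183, 276 and 187 (log2 fold change 1.21, SE 0.25, adjusted p = 0.00852; overlap with Gm15283), a call lost on leaving out WT replicate 2 (adjusted p then up to 0.053). Hk2, which starts glycolysis, Slc16a3, a lactate exporter, and Vegfa rose, and Pgk1 of glycolysis fell. Rises were 0 without WT replicate 2 and 2 without WT replicates 1 or 3 or any 1 of the DKO replicates, and the call of Pgk1 was lost on leaving out any 1 WT replicate or Sqstm1 KO replicates 1 or 2 or any 1 DKO replicate (adjusted p then up to 0.218). Of 33 genes of the unfolded protein response and ATF4 pathway 3 rose (Asns, Pdia4 and Cebpb, opposite Tmem189), and 0 or 1 of the list were called on leaving out any 1 WT or DKO replicate.

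Genes of tissue patterning and cell contact held some of the largest changes. Of 25 guidance cues and receptors 8 rose and 2 fell, against 4.11% and 2.31% of all genes. Slit3, a ligand of ROBO receptors, had 1 read over the WT libraries and 160 over DKO, a ratio of 219 (95% counting interval 38.8 to 8717), with an adjusted p of 0.000127. Sqstm1 KO was close to WT at 3.06, 0 and 0, and DKO had 66, 53.7 and 56. All DKO values were far above those of both other groups. Sema3c, a secreted semaphorin, rose from 15, 12.1 and 15.2 to 128, 149.6 and 129.9 (log2 fold change 3.19, SE 0.29, adjusted p = 1.16e-05) and its relative Sema4c from 55.8, 32.4 and 35.8 to 208, 139 and 149 (log2 fold change 1.99, SE 0.30, adjusted p = 0.00081; overlap with D430040D24Rik). The receptor Plxnb1 rose from 1.36, 2.26 and 5.46 to 44, 21.7 and 22.9 (log2 fold change 2.98, SE 0.51, adjusted p = 0.00242; overlap with Gm7628). The 2 falls, Plxna2 and Ntn1 (log2 fold changes -2.82 and -1.80), became 0 on leaving out any 1 WT replicate or DKO replicate 3 and 1 without DKO replicates 1 or 2. Of 18 cadherins, protocadherins and integrins 1 rose and 2 fell. Cdh11, the mesenchymal cadherin, rose from 0, 0.753 and 1.82 to 63.1, 98.2 and 85.3 (log2 fold change 5.59, SE 0.48, adjusted p = 7.58e-06), at the level of Sqstm1 KO (78.6, 118 and 34.7; DKO against Sqstm1 KO adjusted p = 0.832). Pcdh19, a protocadherin, fell from 46.3, 49 and 43.1 to 0, 3.42 and 1.27 (log2 fold change -4.45, SE 0.51, adjusted p = 8.88e-05; overlap with Gm26851), below Sqstm1 KO at 16.3, 29.2 and 32.5. Pcdh18 was the other gene that fell (log2 fold change -2.22, adjusted p = 0.0325), a call lost on leaving out any 1 WT replicate or DKO replicates 1 or 3 (adjusted p then up to 0.15). Without Sqstm1 KO replicate 3 the list had 4 rises and 4 falls, and without DKO replicate 1 it had 2 rises. In WNT signalling, where 4 of 21 genes rose and 1 fell, Frzb, a secreted WNT antagonist, had 1 read over WT and 47 over DKO, a ratio of 64.4 (95% counting interval 11 to 2598), with an adjusted p of 0.00746. The receptor Fzd4 rose from 1.36, 2.26 and 1.82 to 15.3, 16 and 15.3 (log2 fold change 2.57, SE 0.48, adjusted p = 0.00496). All 4 genes that rose, Fzd4, Sfrp1, Frzb and Dkk3, passed the filter through the DKO libraries alone. They could thus be tested only as rises, and the count of rises in WNT signalling is partly set by the filter. The 4 rises became 2 without WT replicates 2 or 3 or any 1 of the DKO replicates, and the fall, of Fzd2, was lost on leaving out any 1 WT replicate or Sqstm1 KO replicate 1 or any 1 DKO replicate (adjusted p then up to 0.173).

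Transcription factor genes of development rose in 5 and fell in 1 of 22 cases, against 4.11% and 2.31% of all genes. Foxf2, a factor of gut and liver mesenchyme, rose from 1.36, 1.51 and 2.43 to 25.8, 18.3 and 21.7 (log2 fold change 3.06, SE 0.46, adjusted p = 0.000911; overlap with Gm27516), and Sox11 from 0, 0.753 and 1.82 to 16.3, 11.4 and 11.5 (log2 fold change 3.03, SE 0.52, adjusted p = 0.00263). Foxp2 had no read in WT and 8.61, 10.3 and 11.5 in DKO, at least 12.5-fold higher (adjusted p = 0.00527). Foxp1 rose from 79, 71.6 and 75.2 to 184, 175 and 173 (log2 fold change 1.23, SE 0.23, adjusted p = 0.00546). Irx2 fell from 38.1, 36.2 and 40.0 to 3.82, 0 and 0 (log2 fold change -4.53, SE 0.80, adjusted p = 0.00324), and Sqstm1 KO had 0, 0 and 4.34. It was called by edgeR but not by DESeq2 (adjusted p = 0.00128 and 0.0534). A second factor was called lower without Sqstm1 KO replicate 3. Of 14 Hox genes 2 fell and 0 rose. These were the neighbours Hoxb5, from 53.1, 27.9 and 27.9 to 1.91, 4.57 and 1.27 (log2 fold change -3.42, SE 0.60, adjusted p = 0.00306; overlap with Hoxb5os), and Hoxb6, from 72.2, 41.4 and 33.4 to 4.78, 3.42 and 1.27 (log2 fold change -3.61, SE 0.52, adjusted p = 0.000622). Sqstm1 KO was low in both, at 2.04, 1.62 and 8.68 and 8.17, 3.25 and 9.76, and 5 Hox genes were called lower without Sqstm1 KO replicate 3. Among 11 imprinted genes 3 rose and 1 fell. Rtl1, a retrotransposon-derived gene of the placenta, rose from 5.45, 6.03 and 5.46 to 174, 92.5 and 107 (log2 fold change 4.19, SE 0.31, adjusted p = 2.29e-06; it lies opposite Mir127 and other microRNAs). Grb10, an inhibitor of insulin and growth factor signalling, rose from 30.0, 27.9 and 22.4 to 129, 104 and 118 (log2 fold change 2.09, SE 0.30, adjusted p = 0.00054). Mest, opposite Copg2, rose and Impact fell (adjusted p = 0.0407 and 0.0489), calls lost for Mest on leaving out any 1 WT replicate or Sqstm1 KO replicate 1 or any 1 DKO replicate (adjusted p then up to 0.181) and for Impact on leaving out any 1 WT replicate or Sqstm1 KO replicate 1 or any 1 DKO replicate (adjusted p then up to 0.184). Of 7 vasoactive peptide receptors and prostanoid enzymes 3 rose, Npr3, Ptgs1 (overlap with Gm43621) and Ptgis (overlap with 1110018N20Rik), and Npr3 alone was called without WT replicates 1 or 2. Npr3, the clearance receptor for natriuretic peptides, rose from 4.09, 5.27 and 3.64 to 44, 36.5 and 36.9 (log2 fold change 2.92, SE 0.38, adjusted p = 0.000312; overlap with Gm5144).

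Genes outside the lists were also among the largest changes. Lgi2, a secreted leucine-rich repeat protein, had no read in WT, 5.10, 5.68 and 8.68 in Sqstm1 KO and 74.6, 90.2 and 68.8 in DKO, at least 96.3-fold above WT (adjusted p = 1.63e-06). Slc43a1, an amino acid transporter, went from 10.9, 9.79 and 12.7 to 159.7, 138 and 188 (log2 fold change 3.74, SE 0.30, adjusted p = 4.75e-06). Lor, the cornified envelope protein loricrin, went from 135, 92.7 and 73.4 to 10.5, 6.85 and 21.7 (log2 fold change -2.95, SE 0.42, adjusted p = 0.000559) and Pter, a phosphotriesterase-related gene, from 163, 116 and 97 to 14.3, 34.2 and 16.6 (log2 fold change -2.54, SE 0.35, adjusted p = 0.000418). In Sqstm1 KO Lor had 146, 121 and 60.7 and Pter 234, 209 and 363, and DKO was lower than Sqstm1 KO in both (log2 fold change -3.03, adjusted p = 0.000485, and -3.63, adjusted p = 1.87e-05). Medag, a regulator of adipocyte differentiation, fell from 85.8, 92.7 and 108 to 13.4, 37.7 and 20.4 (log2 fold change -2.07, SE 0.38, adjusted p = 0.0042). Nmt2, which attaches myristate to proteins, fell from 118, 117 and 153 to 23.9, 40.0 and 28 (log2 fold change -2.07, SE 0.30, adjusted p = 0.00071). Pfn2, an actin-binding profilin, fell from 55.8, 58.8 and 75.8 to 19.1, 17.1 and 12.7 (log2 fold change -1.90, SE 0.30, adjusted p = 0.00155). Parp6 and Acot9, a thioesterase of mitochondria, fell with log2 fold changes of -2.07 and -1.84 (adjusted p = 0.00132 and 0.00802).

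Overlap with the opposite strand went with more calls of higher genes and fewer calls of lower genes. Genes with an annotated overlap were called higher in 5.18% and lower in 1.43% of 3630 cases, and genes without one in 3.14% and 2.45% of 5509. Of 140 called genes whose partner was tested, 123 partners (87.9%) had a fold change of the same sign, against 1467 of 2278 (64.4%) of all tested genes with a tested partner. Genes not found in the annotation were called higher in 5.62% and lower in 4.8% of 979. The partner was called in 46 of the 140, and all 46 moved in the direction of the gene. Since 2 called genes can be each other's partner, the 46 come from 25 distinct pairs. Among genes with an overlap, Tenm3, a teneurin adhesion receptor opposite Gm19744, had no read in WT and 94.7, 90.2 and 86.6 in DKO, at least 112-fold higher (adjusted p = 1.7e-07). Tmem255b and its partner Gas6 were given above. Csnk1d, casein kinase 1 delta, opposite Gm28192, went from 47.7, 57.3 and 57.6 to 1575, 849 and 1077 (log2 fold change 4.36, SE 0.27, adjusted p = 5.84e-07). Tcte1, opposite Tmem151b, and Med12l, opposite Igsf10, rose with log2 fold changes of 5.11 and 4.37 (adjusted p = 0.000331 and 8.8e-05). Among the falls, LTO1 went from 3277, 2679 and 2215 to 522, 498 and 559 (log2 fold change -2.35, SE 0.29, adjusted p = 0.000185), and its partner Ccnd1 fell as given above. Rsrc1 and Tdg, opposite Shox2 and Glt8d2, fell with log2 fold changes of -2.06 and -1.99 (adjusted p = 0.00716 and 0.00495). Whether such changes belong to the named gene or to its partner was not tested. Restricted to genes without an overlap, a refit called 183 genes higher and 145 lower, and 7 of 11 genes of the acute-phase list.

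**Figure D5:**
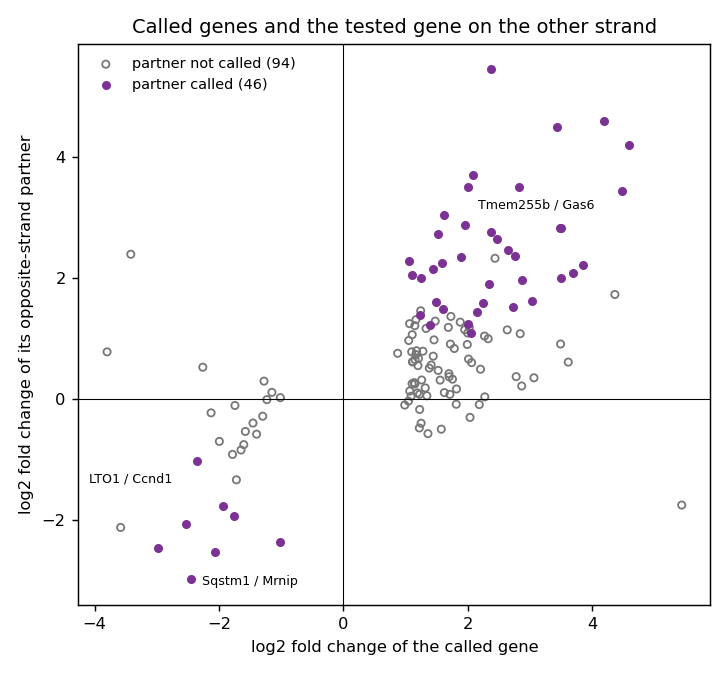
Log2 fold change of the opposite-strand partner (y axis) against that of the called gene (x axis), DKO over WT, for the 140 called genes whose partner was tested. Filled points are the 46 whose partner was called too, and all 46 lie in the upper right or lower left part, where both changes have the same sign. They come from 25 distinct pairs, most of them drawn once from each side.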

How the data were processed

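RNA of 9 samples of cultured mouse hepatic stellate cells was sequenced (3 WT, 3 Sqstm1 KO, 3 DKO). The authors deposited a table of 14020 genes whose values are signal on a linear scale, read counts per gene divided by a size factor per library. The submitters' processing notes name STAR, DESeq2 and GRCm39. No source used here gives their versions, the counter, the library kit or its strand. Dividing each library by its step gave whole reads for 100.0% of 121126 values within 0.01.

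Genes reaching 10 in 3 or more libraries were tested on log2(value + 1) with limma 3.58.1 (trend, R 4.3.3), all 9 libraries in 3 groups, with Benjamini-Hochberg adjustment over 10118 genes and a threshold of 0.05. As a check, edgeR 4.0.16 on the recovered reads called 484 genes higher and 251 lower. The procedure was also run on simulated counts with the same dispersion for every gene and no outlying library. That setting differs from these libraries, so it does not show how reliable the calls are here. Overlaps with the opposite strand came from the GENCODE M21 annotation (GRCm38), used by gene name, with 12408 names matched. Ratios over 1 to 3 reads carry 95% counting intervals, and a group without reads was set to a floor of 3 counts over the group. Both cover counting error only, and list medians were the same with such genes at their bound.

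The p-values measure the spread between these libraries, which may be technical, and an exact permutation test of 3 against 3 cannot go below 0.1. The members and gene lists were chosen with earlier results of these data known. Named genes were Sqstm1, Nbr1, Y-linked genes, the 12 largest rises and falls with a mean of at least 50 and no overlap, the 5 largest of each with one, and up to 4 called members per direction of each list or, where none was called, the 2 with the highest mean. Predicted genes were left out of the largest changes, and some genes that the rule selects are not reported here. Further called members, and members that were not called such as Col1a1, Ifit1, Sting1, Cgas, Tbk1 and Pdgfrb, were named after their values were seen. Alternatives were the 6 libraries alone, pseudocounts of 0.5 and 5, no filter, a minimum of 50, quantile normalization, genes without overlap, a replicate block, edgeR, DESeq2 1.42.0 and each library left out. Same-numbered libraries of WT and DKO did not all deviate together. 0 columns were left unused.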

Additional observations from a re-analysis of the deposited data

How the results depend on the processing

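Apart from leaving out 1 library, which is given below, the counts of called genes moved by more than 1.5 times under 4 settings. For DKO against WT (416 higher, 234 lower) they were 711 and 518 in the 6 libraries alone, 232 and 128 with a minimum of 50, and 183 and 145 for genes without an overlap. Quantile normalization gave 389 lower genes. For DKO against Sqstm1 KO (447 and 153) the same 3 settings gave 290 and 62, 211 and 80, and 238 higher genes. The minimum of 50 and the restriction to genes without an overlap test fewer genes. For the rest the cause was not tested. Leaving out 1 library gave 218 to 799 higher and 76 to 610 lower against WT, and 263 to 566 and 70 to 211 against Sqstm1 KO, with the highest counts without Sqstm1 KO replicate 3. The replicate block gave 470 higher and 284 lower against WT and 496 and 176 against Sqstm1 KO. Deviations of same-numbered WT and DKO libraries correlated at 0.144, 0.0684 and -0.115. They were not set against differently numbered libraries, so they cannot decide whether the numbers pair the samples. DESeq2 called 565 and 315. Among single genes that were not called, the log2 fold change turned sign for Erap1 (opposite Cast; -0.060) under quantile normalization. Leaving out 1 library also turned the sign of 3 such genes, with ranges of -0.18 to 0.071 for Atp5a1 (opposite Haus1; turned without WT replicates 2 or 3 or DKO replicate 1), -0.13 to 0.32 for Mdm2 (WT replicate 1, DKO replicate 3) and -0.29 to 0.14 for Kdm5d (WT replicates 2 or 3, DKO replicates 1 or 3). Below about 10 normalized counts, a few reads set the fold change.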

Other observations

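The genes given here lie outside the naming rule and were chosen after their values were seen. Osmr, the receptor for oncostatin M, a cytokine that induces acute-phase genes, stood at 27.2, 30.9 and 26.1 in WT, 13.3, 18.7 and 22.8 in Sqstm1 KO and 102, 179 and 127 in DKO (log2 fold change 2.21, SE 0.31, adjusted p = 0.000459, limma). All DKO libraries lay above all others. Lifr, which encodes a receptor that shares the same signalling chain, went from 15, 20.3 and 19.4 to 48.8, 82.2 and 57.3 (log2 fold change 1.71), a call lost on leaving out any 1 WT replicate or DKO replicates 2 or 3 (adjusted p then up to 0.0792). Cebpd, opposite Spidr, went from 177, 123 and 129.8 to 405, 408 and 495 (log2 fold change 1.61), a call lost on leaving out WT replicates 2 or 3 or DKO replicates 1 or 3 (adjusted p then up to 0.0915). Clu, the secreted chaperone clusterin, rose from 1.36, 0 and 1.82 to 36.3, 30.8 and 31.8 (log2 fold change 4.17, SE 0.72, adjusted p = 0.00286). Svep1, a large matrix protein with complement-like domains, opposite Gm26889, rose from 5.45, 9.79 and 6.67 to 149, 159.8 and 150.3 (log2 fold change 4.25, SE 0.37, adjusted p = 8.02e-06). Pgf, placental growth factor, had no read in WT and 42.1, 20.5 and 26.7 in DKO, at least 36.8-fold higher (adjusted p = 0.000223, limma). Ctsc, a cathepsin that activates serine proteases, had no read in WT, 8.17, 9.74 and 18.4 in Sqstm1 KO and 12.4, 26.3 and 15.3 in DKO, at least 22.3-fold above WT.

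Genes that fell were chosen in the same way. Anxa1, a phospholipid-binding mediator that dampens inflammation, fell from 515, 540.1 and 546 to 193, 241 and 237 (log2 fold change -1.26, SE 0.24, adjusted p = 0.00589, limma). Anxa3 fell from 106, 126 and 138 to 44.9, 34.2 and 38.2 (log2 fold change -1.63, SE 0.29, adjusted p = 0.00323, limma). S100a4, a calcium-binding protein of motile fibroblasts, fell from 25.9, 32.4 and 41.2 to 5.74, 11.4 and 8.92 while Sqstm1 KO had 36.8, 51.9 and 62.9 (log2 fold change -1.84, SE 0.35, adjusted p = 0.00582, limma). Lgals3, galectin 3, went from 30.0, 30.1 and 43.7 to 0.956, 11.4 and 7.64 (log2 fold change -2.56), a call lost on leaving out any 1 WT replicate (adjusted p then up to 0.0909). Mecom, a transcription factor opposite Mecomos, fell from 35.4, 44.4 and 41.2 to 4.78, 1.14 and 3.82 (log2 fold change -3.40, SE 0.42, adjusted p = 0.000163, limma). Il1rl1, the receptor for interleukin 33, had 73 reads over WT, 0 in Sqstm1 KO and 2 over DKO, a ratio of WT to DKO of 26.6 (95% counting interval 7.11 to 224), and its call was lost on leaving out WT replicates 2 or 3 (adjusted p then up to 0.0612).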
